A study of Mus musculus with 6 samples.

Results

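Genes that drive mitosis were followed in RVP3 cells after a combined epigenetic treatment. The 56 genes listed encode mitotic kinases, spindle checkpoint proteins, regulators of mitotic entry, chromosomal passengers, kinetochore and centromere proteins, kinesins, spindle assembly factors, partners of the anaphase-promoting complex (APC), condensins, cytokinesis proteins and proliferation factors. The genes were chosen with earlier results of these data known. Every probe carrying such a gene symbol in the platform annotation was taken. Probes with a name were found for 40 of the 56 genes, 62 probes in all of 15131 in the table of processed values. The other 16 (Bub1, Ccna2, Ccnb1, Ccnb2, Cenpe, Cenph, Hmmr, Kif18a, Kif20a, Mki67, Nek2, Nuf2, Racgap1, Tacc3, Ttk and Ube2c) were not analysed here.

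RVP3 is a mouse tumour cell line of C57BL/6 background that was grown in vitro, and the study describes it as not responding to IFNγ. Treated cultures (DAC/TSA, n = 3 arrays) were given 24 h in fresh medium, then 3 µM DAC (5-2´-deoxyazacytidine) for 48 h and 30 ng/ml TSA (trichostatin A) for a further 24 h, while control cultures (n = 3 arrays) received neither agent. DAC blocks DNA methyltransferases and TSA blocks histone deacetylases. All 6 samples come from this single line, no vehicle is named for the controls, and neither agent was given alone on these arrays, so the effects of DAC and TSA cannot be told apart.

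Cells enter mitosis when cyclin-dependent kinase 1 is activated by Cdc25 phosphatases, and Aurora and Polo kinases then build the spindle together with motor proteins of the kinesin family. Kinetochores, assembled on centromeres that contain the histone variant CENP-A, attach chromosomes to microtubules. Until all are attached, the spindle checkpoint holds back Cdc20, the activator of the APC, and once released the APC destroys securin and cyclin B so that separase can part the sister chromatids. Many of these genes are transcribed late in the cell cycle from promoters that carry a cell cycle homology region (CHR) near the start site and CCAAT boxes upstream, bound in other systems by the DREAM and MuvB complexes and by NF-Y.

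These promoter elements can be read in the 150 bases that precede the start site, shown for a few genes as examples. Of these, 3 fell after DAC/TSA (Cdc20, Cenpa and Kif11) and 2 rose (Bub3 and Spc25). Plk1 and Kif23, which also fell, are not shown. Each has 1 CCAAT box in this stretch and CHR letters only past the start site, at 31 and 3 bases. Aurka, Ndc80, Kif22 and Cdca8 are not shown because their stretch lies inside an annotated gene. The sequences are from RefSeq (GRCm38.p6), 5′ to 3′ in the direction of transcription, with CHR letters (TTTGAA or its complement TTCAAA) and CCAAT boxes (CCAAT or its complement ATTGG) in capitals.
Cdc20 (chr4:118437344-118437493, minus strand): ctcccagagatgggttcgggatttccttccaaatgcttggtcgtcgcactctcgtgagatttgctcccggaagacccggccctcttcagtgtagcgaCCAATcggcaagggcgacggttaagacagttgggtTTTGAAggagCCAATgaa
Cenpa (chr5:30666736-30666885, plus strand): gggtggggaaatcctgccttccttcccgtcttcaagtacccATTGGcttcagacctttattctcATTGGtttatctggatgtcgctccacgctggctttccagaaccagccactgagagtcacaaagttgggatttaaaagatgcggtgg
Kif11 (chr19:37376232-37376381, plus strand): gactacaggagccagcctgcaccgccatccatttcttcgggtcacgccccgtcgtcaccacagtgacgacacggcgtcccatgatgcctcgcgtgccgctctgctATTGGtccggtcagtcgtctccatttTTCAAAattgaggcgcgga
Bub3 (chr7:131560220-131560369, plus strand): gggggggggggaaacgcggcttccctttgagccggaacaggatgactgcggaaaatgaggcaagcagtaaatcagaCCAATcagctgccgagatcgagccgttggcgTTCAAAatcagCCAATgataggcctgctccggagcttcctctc
Spc25 (chr2:69206214-69206363, minus strand): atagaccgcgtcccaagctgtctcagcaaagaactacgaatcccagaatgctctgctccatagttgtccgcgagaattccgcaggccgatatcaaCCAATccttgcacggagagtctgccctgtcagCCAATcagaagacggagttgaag
The CHR letters begin 18 bases before the start site in Cdc20, 19 in Kif11 and 43 in Bub3. Those of Cenpa and Spc25 lie past the start site, at 17 and 25 bases, and so outside the stretches shown. Cdc20, Cenpa, Bub3 and Spc25 have 2 CCAAT boxes each in view, and Kif11 has 1.

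Most of the measured mitotic genes were lower in DAC/TSA cells. In the limma fit over 16760 probes, at an adjusted p under 0.01, 23 of the 40 fell and 2 rose, against 25.8% lower and 27.0% higher over all 8734 named genes tested. The remaining 15 did not pass. The median log2 change (DAC/TSA minus control) was -0.44 over the 40 genes, or -0.41 with undetected genes at their bound, and -0.02 over all named genes. On 27 of the 40 probes every DAC/TSA array was below every control array, where 34.6% of named genes were, and on 4 every DAC/TSA array was above, where 34.7% were. In RNA from a culture, fewer cells in mitosis and less RNA per cell cannot be told apart.

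The size of the change was modest in most cases. Only Cdc20, Aurka and Cenpa fell by 2-fold or more, against 3.82% of named genes, and 34 of the 40 changes were negative. Scaling arrays by their median in place of quantiles left 6 genes lower (Aurka, Cdc20, Cdca8, Cenpa, Kif11 and Kif22) and 1 higher (Bub3), with 9.33% of named genes lower and 15.3% higher. Of the genes called in either direction, 62.1% were higher under that scaling and 51.1% under quantile normalisation. The 17 genes that lost the call of lower kept negative changes under median scaling, with adjusted p between 0.0153 (Plk1) and 0.214 (Kif20b). Spc25 lost the call of higher and kept a positive change (0.50, adjusted p = 0.107).

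**Figure D1:**
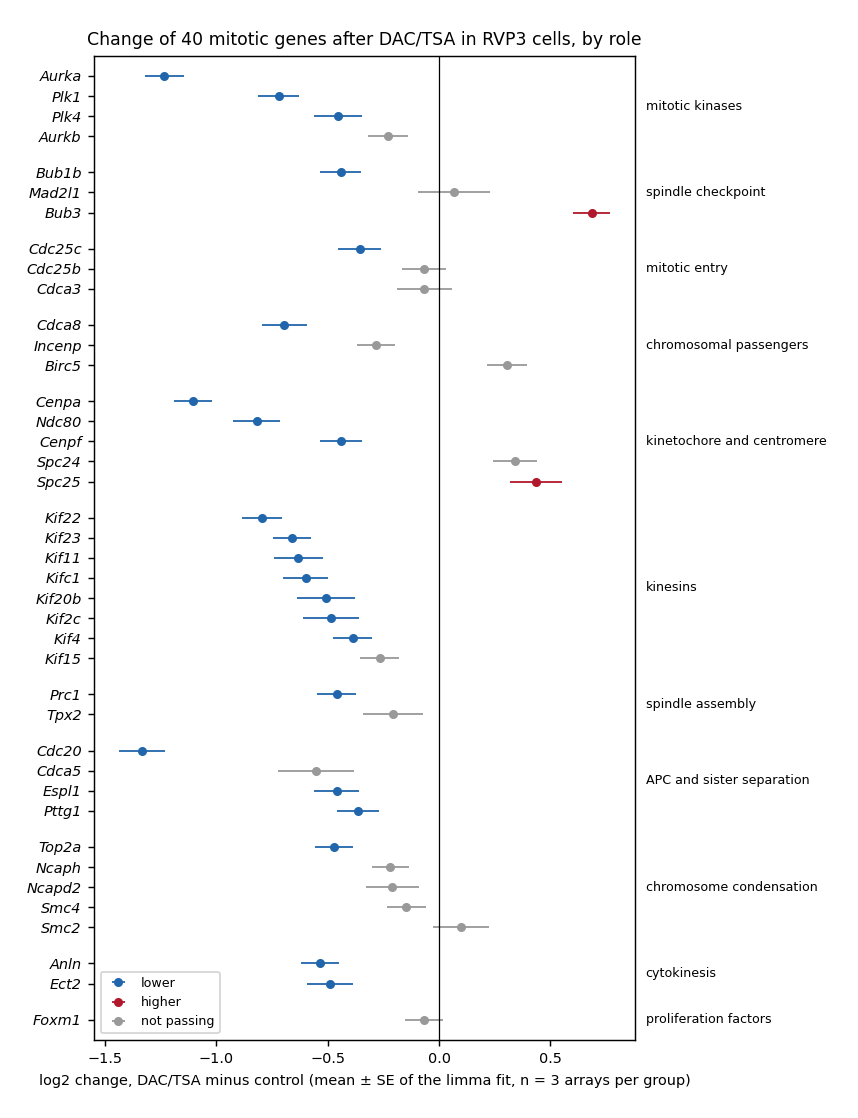
Log2 change (DAC/TSA minus control, horizontal axis) of the 40 measured mitotic genes, grouped by role; points are limma estimates and bars their SE, n = 3 arrays per group. All 8 kinesins lie left of 0, while Bub3 at 0.69 and Spc25 at 0.44 are the genes called higher.

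Signal and detection before normalisation differed between the groups in the same direction at every replicate number. Median signals were 45.9, 44.8 and 42.6 on DAC/TSA arrays 1, 2 and 3 and 42.9, 42.2 and 39.96 on the control arrays of the same numbers. Detected probes numbered 14101, 14731 and 15056 on the DAC/TSA arrays and 13227, 13882 and 14261 on the control arrays. The part of these differences in the mitotic changes was not tested. Arrays of the same group correlated at 0.992 to 0.997 and arrays of different groups at 0.944 to 0.95. By these correlations no array stood apart from its group. Mean signals before normalisation were highest on the third array of both groups. They were 260.4, 251.4 and 295.7 on DAC/TSA arrays 1, 2 and 3, and 237.4, 233.2 and 278.7 on the control arrays. The part of this difference in the mitotic changes was not tested. Among markers of other cells, 4 of the 5 leukocyte markers measured (of 10 listed) rose, and all 4 were undetected on the control arrays. Of all named genes, 27.0% rose and 25.8% fell. The summed log2 level of all 5 leukocyte markers measured was 8.81 to 8.83 in DAC/TSA samples and 7.80 to 7.96 in controls. Ptprc, which defines leukocytes, was not measured. Of the 3 endothelial markers measured (of 6), 1 rose and 1 fell, with summed levels of 10.74 to 10.93 in DAC/TSA samples and 8.63 to 8.79 in controls. Of the 3 epithelial markers (of 5) 1 rose and none fell (11.26 to 11.58 in DAC/TSA samples, 11.12 to 11.53 in controls), and likewise 1 of the 3 mesenchymal markers (of 7) rose and none fell (12.16 to 12.20 in DAC/TSA samples, 11.18 to 11.29 in controls). The part of these markers in the mitotic changes was not tested.

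Mitotic kinases fell in 3 of 4 cases (75%, against 25.8% of named genes), with a median log2 change of -0.59. Aurka, the Aurora A kinase of centrosomes and spindle poles, had log2 signals of 9.62, 9.70 and 9.57 on the DAC/TSA arrays and 10.79, 10.94 and 10.86 on the control arrays. Each treated array was more than a log2 unit below each control array, and the change was -1.23 (SE 0.088, adjusted p = 2.02e-07), or 2.35-fold lower. Plk1, the Polo kinase that acts throughout mitosis, had log2 signals of 8.79, 8.69 and 8.76 in DAC/TSA samples and 9.58, 9.37 and 9.46 in controls, a change of -0.72 (SE 0.090, adjusted p = 2.24e-05) with no overlap. Plk4, which starts centriole duplication, was dimmer and more variable, at 5.89, 5.76 and 6.11 in DAC/TSA cells and 6.28, 6.35 and 6.49 in control cells. Its change of -0.45 (SE 0.107, adjusted p = 0.00295) missed the threshold when DAC/TSA array 1 (adjusted p = 0.0117), DAC/TSA array 2 (0.0202) or control array 3 (0.0108) was left out. Aurkb, the Aurora B kinase of the chromosomal passenger complex, did not pass (log2 change -0.23, adjusted p = 0.0446), although its values of 7.86, 7.85 and 7.97 in DAC/TSA samples were all below the control values of 8.03, 8.12 and 8.22.

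Spindle checkpoint genes split, with 1 of 3 lower and 1 of 3 higher. These shares are near the 25.8% lower and 27.0% higher of all named genes. Bub1b, which encodes the checkpoint protein BubR1, read 10.07, 10.02 and 10.26 on DAC/TSA arrays and 10.53, 10.52 and 10.61 on control arrays. It fell by 0.44 on the log2 scale (adjusted p = 0.00134), a call lost without DAC/TSA array 2 (adjusted p = 0.0102). Bub3, the partner that brings BubR1 and Bub1 to kinetochores, went the other way, at 7.69, 7.70 and 7.65 in DAC/TSA cells and 6.95, 7.03 and 7.01 in control cells. Replicates lay close together in both groups, and the change was 0.69 (SE 0.083, adjusted p = 1.65e-05), or 1.61-fold higher. Mad2l1, the Mad2 protein that binds Cdc20, spread more within groups than between them, with 9.84, 9.77 and 10.22 in DAC/TSA samples and 9.71, 9.65 and 10.27 in controls (change 0.07, adjusted p = 0.74). The third replicate was the brightest of its group in both.

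Among regulators of mitotic entry, 1 of 3 fell, near the share of all named genes, and the median change was -0.07. Without an array this median was -0.10, -0.15 and -0.04 (DAC/TSA 1, 2 and 3) and -0.16, -0.03 and -0.16 (control 1, 2 and 3), and a call remained only without DAC/TSA array 2. Cdc25c, a phosphatase that activates cyclin-dependent kinase 1, had 6.52, 6.70 and 6.46 in DAC/TSA samples and 6.82, 7.02 and 6.91 in control samples, a change of -0.36 (adjusted p = 0.00684). That call rested on nearly the full set of arrays. It was lost without DAC/TSA array 1 (adjusted p = 0.0259) or 3 (0.0196), or without control array 1 (0.01002), 2 (0.0355) or 3 (0.0134). The related phosphatase Cdc25b (-0.07, adjusted p = 0.582) and Cdca3 (-0.07, adjusted p = 0.67) had values that overlapped between groups.

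The chromosomal passenger complex, which corrects wrong attachments and later marks the midzone, was also uneven. Of the 3 genes in this role 1 fell, near the 25.8% of all named genes. Cdca8 (borealin) fell, with 10.65, 10.56 and 10.38 in DAC/TSA cells and 11.27, 11.32 and 11.08 in control cells, a change of -0.69 (SE 0.102, adjusted p = 8.52e-05). Incenp, the scaffold of the complex, changed by -0.28 and just missed the threshold (adjusted p = 0.0128), and with the replicate number as a block it passed (adjusted p = 0.00317). Birc5 (survivin) was brighter after treatment on its main probe, at 10.81, 10.80 and 10.74 in DAC/TSA samples and 10.59, 10.42 and 10.41 in controls. Its change of 0.31 did not pass (adjusted p = 0.0102), but passed with the block (0.00187) and without control array 1 (0.00954), and its other probes rose by 0.36 and 0.47 (adjusted p = 0.00416 and 0.000716). The 3 measured subunits that join Aurora B therefore included values on both sides of 0, and with Aurkb itself not passing, Cdca8 was the gene of this complex called lower in the unblocked fit.

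Kinetochore and centromere genes had 3 lower and 1 higher of 5 measured, with a median of -0.44. Of all named genes 25.8% were lower and 27.0% higher. Cenpa, the histone variant on which centromeres are built, had log2 signals of 11.28, 11.22 and 11.27 on DAC/TSA arrays and 12.36, 12.42 and 12.29 on control arrays. Both groups were tight, and the change was -1.10 (SE 0.085, adjusted p = 3.79e-07), or 2.15-fold lower. Ndc80, which grips microtubules at the outer kinetochore, was at 7.17, 7.19 and 7.51 in DAC/TSA samples and 8.08, 8.06 and 8.18 in controls (change -0.82, SE 0.105, adjusted p = 2.72e-05). Cenpf, a large protein of the outer kinetochore, was detected on 1 of 3 DAC/TSA arrays and on all 3 control arrays, with 5.72, 5.67 and 5.90 in DAC/TSA cells and 6.28, 6.23 and 6.12 in control cells. It changed by -0.44 (adjusted p = 0.00152), and lost the call without DAC/TSA array 2 (adjusted p = 0.0111).

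Within the Ndc80 complex the subunits differed in direction. Spc25, which with Spc24 anchors the complex to the inner kinetochore, had 6.64, 6.66 and 6.99 in DAC/TSA samples and 6.14, 6.37 and 6.46 in controls, and was called higher by 0.44 (SE 0.117, adjusted p = 0.00639). DAC/TSA array 3 was the brightest, and the call was lost without it (change 0.32, adjusted p = 0.0187). It was also lost without DAC/TSA array 2 (adjusted p = 0.0114), control array 1 (0.0368) or control array 2 (0.0153), under median scaling (0.107) and with the mean of its probes (0.0101). Spc24 had a change of 0.34 at an adjusted p of 0.01005, just above the threshold, with 7.61, 7.75 and 7.63 in DAC/TSA samples and 7.15, 7.39 and 7.43 in control samples. It passed with the block (adjusted p = 0.00109) and without control array 3 (0.00698). The Spc24 and Spc25 probes, 2 of each, all had positive changes, whereas Ndc80 fell.

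**Figure D2:**
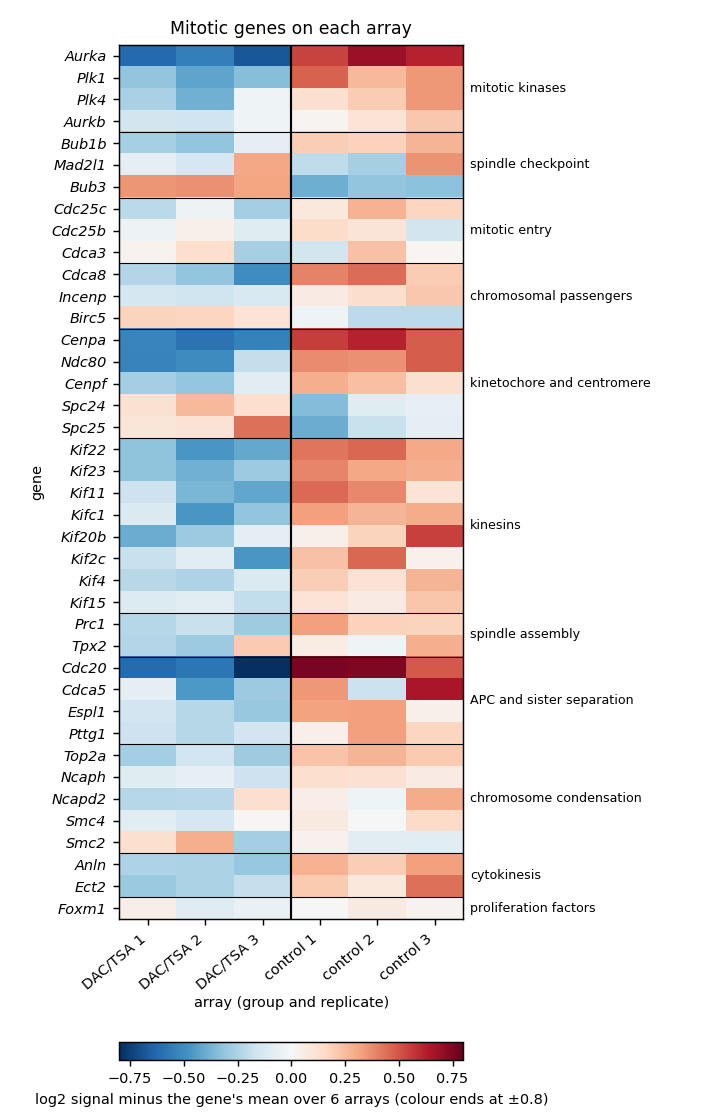
Log2 signal of each measured gene (rows, grouped by role) on each array (columns, DAC/TSA arrays left and control arrays right) minus the gene's mean over the 6 arrays; blue is below and red above that mean. The Bub3, Birc5, Spc24 and Spc25 rows run opposite to Aurka, Cenpa and Cdc20, and Mad2l1 follows the third replicate of both groups.

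Mitotic kinesins fell in 7 of 8 cases (87.5%, against 25.8% of named genes), and the median was -0.55. On all 8 probes each DAC/TSA array was below each control array, where 34.6% of named genes were. Kif22, a motor that binds chromosome arms, had 9.86, 9.71 and 9.77 in DAC/TSA cells and 10.61, 10.63 and 10.48 in control cells, a change of -0.79 (SE 0.089, adjusted p = 8.88e-06). Kif23, the motor of centralspindlin at the midzone, had 8.49, 8.43 and 8.52 in DAC/TSA cells and 9.20, 9.13 and 9.10 in control cells (change -0.66, SE 0.085, adjusted p = 2.72e-05). Its probes did not all go the same way. A further Kif23 probe changed by -0.79 (adjusted p = 0.00557), while another had a change of 0.32 that did not pass (adjusted p = 0.0111). Kif11, the bipolar motor that pushes spindle poles apart, had 7.95, 7.75 and 7.70 on DAC/TSA arrays and 8.57, 8.50 and 8.23 on control arrays, a change of -0.63 (SE 0.11, adjusted p = 0.000327).

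Of the remaining kinesins, 4 fell by smaller amounts and Kif15 did not pass. Kifc1, a minus-end motor that clusters spindle poles, changed by -0.60 (adjusted p = 0.00024). Kif20b, which acts in cytokinesis, changed by -0.51 (adjusted p = 0.00489), and the call was lost without DAC/TSA array 1 (0.0236) or 2 (0.0211) or control array 2 (0.01001) or 3 (0.0155). The microtubule depolymerase Kif2c changed by -0.48 (adjusted p = 0.00536), and did not pass without DAC/TSA array 1 (0.0103) or 3 (0.0138), without control array 1 (0.0171) or 2 (0.0298), or with neqc background correction (0.0141). Kif4, a chromosome-bound motor that works with Prc1, changed by -0.39 (adjusted p = 0.00232), a call lost without DAC/TSA array 1 (0.0102) or 2 (0.0144). Kif15, which assists Kif11, changed by -0.27 and did not pass (adjusted p = 0.0203), but passed with the block (0.00700). Thus with 1 array left out, 4 to 6 of the 8 kinesins were called lower, and all 8 changes stayed negative each time.

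Spindle assembly factors were represented by Prc1 and Tpx2. Prc1, which bundles antiparallel microtubules of the midzone, had 11.54, 11.59 and 11.48 in DAC/TSA samples and 12.09, 11.95 and 11.94 in controls, and fell by 0.46 on the log2 scale (adjusted p = 0.000659). Tpx2, an activator of Aurora A, had a change of -0.21 that did not pass (adjusted p = 0.205), with 6.05, 5.99 and 6.49 in DAC/TSA samples and 6.34, 6.24 and 6.57 in controls. Its groups overlapped through the third DAC/TSA array.

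Genes of the APC step and of sister separation fell in 3 of 4 cases, against 25.8% of named genes. Their median was -0.51. Cdc20, the APC activator on which the checkpoint acts, had the most negative change of the 40 genes, with 9.89, 9.93 and 9.70 on DAC/TSA arrays and 11.27, 11.26 and 11.00 on control arrays. The change was -1.33 (SE 0.104, adjusted p = 4.19e-07), or 2.52-fold lower, and the 4 Cdc20 probes ranged between -1.17 and -1.45. Espl1 (separase) had 7.57, 7.49 and 7.42 in DAC/TSA samples and 8.05, 8.05 and 7.76 in controls (change -0.46, adjusted p = 0.00185), a call lost without control array 1 (0.0117) or 2 (0.0112). Pttg1 (securin, the inhibitor of separase) was detected on no DAC/TSA array and on all 3 control arrays. Its signals were 5.66, 5.60 and 5.67 in DAC/TSA cells and 5.86, 6.15 and 6.00 in control cells, at least 1.23-fold lower after treatment (adjusted p = 0.0055). This call was lost without DAC/TSA array 1 (0.0150) or 2 (0.0266) or control array 2 (0.0325) or 3 (0.0109). Cdca5 (sororin), which protects cohesion, had 6.95, 6.57 and 6.73 in DAC/TSA samples and 7.37, 6.85 and 7.68 in controls, so that the control arrays spread widely and the groups overlapped. The change of -0.55 did not pass (SE 0.171, adjusted p = 0.0149), but did with the block (0.000203) or without control array 2 (0.000583).

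**Figure D3:**
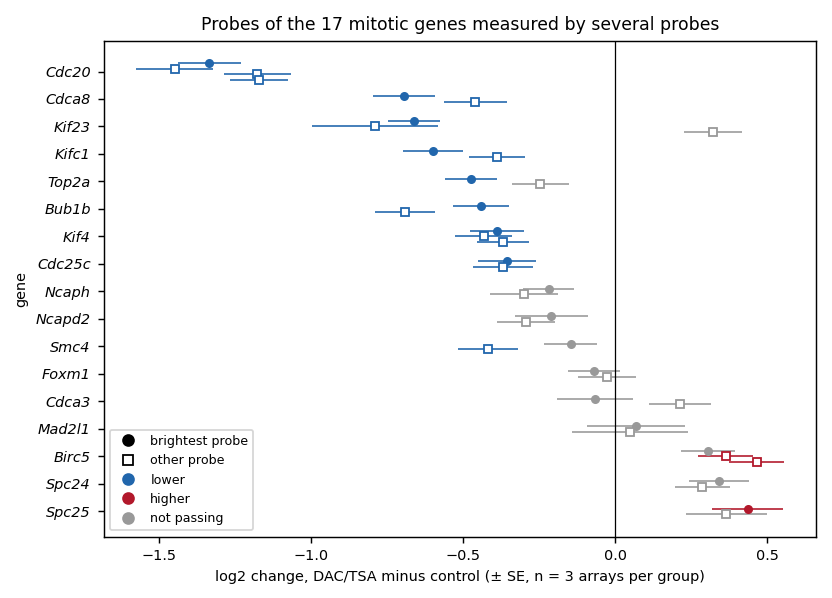
Log2 change of every tested probe of the mitotic genes measured by several probes (horizontal axis, DAC/TSA minus control), with the brightest probe of each gene marked. The 4 Cdc20 probes lie together between -1.17 and -1.45, and Kif23 has probes on both sides of 0.

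Of the condensation genes 1 of 5 fell (20%, near the 25.8% of named genes), and the median was -0.21. Top2a, the topoisomerase that untangles chromosomes, had 10.18, 10.29 and 10.17 in DAC/TSA samples and 10.68, 10.72 and 10.66 in control samples, a change of -0.47 (SE 0.085, adjusted p = 0.000423). A dimmer Top2a probe changed by -0.25 and did not pass (adjusted p = 0.0381). The condensin subunits Ncaph (-0.22, adjusted p = 0.0408), Ncapd2 (-0.21, adjusted p = 0.155), Smc4 (-0.15, adjusted p = 0.176) and Smc2 (0.10, adjusted p = 0.532) did not pass. A dimmer Smc4 probe was called lower (change -0.42, adjusted p = 0.0028). Both cytokinesis genes measured fell, where 25.8% of named genes did. Anln, a scaffold of the contractile ring, had 11.13, 11.12 and 11.07 in DAC/TSA cells and 11.66, 11.57 and 11.70 in control cells (change -0.53, adjusted p = 0.000161). Ect2, the exchange factor that switches on RhoA at the cell equator, was undetected on all 3 DAC/TSA arrays, with 5.53, 5.58 and 5.64 there and 6.04, 5.92 and 6.27 on control arrays, and was at least 1.29-fold lower (adjusted p = 0.00126). Foxm1, a transcription factor for many of these genes, had a change of -0.07 that did not pass (adjusted p = 0.52).

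Set side by side, the kinases (3 of 4 lower, median -0.59), kinesins (7 of 8, -0.55) and APC and separation genes (3 of 4, -0.51) had lower medians than the kinetochore genes (3 of 5, -0.44) and the checkpoint genes (1 of 3, 0.07). These medians rest on few genes each, their order was not tested, and it depends on the setting. With neqc the kinetochore median was -0.72, below kinesins (-0.66) and APC and separation genes (-0.65). Without DAC/TSA array 3 it was -0.51, against -0.48 for APC and separation genes, and without control array 3 it was -0.49, against -0.46. The checkpoint median ranged between -0.07 and 0.27 when an array was left out. Across probes, 34 of the 62 were called lower and 4 higher, where 25.8% and 27.0% of named genes were by their brightest probe. These shares are not like for like, because genes with several probes count repeatedly among the 62. The share over all probes is not given here. Of the 17 genes with several probes, 15 had all changes of the same sign and 12 had the same call on every probe, and no gene had probes called in opposite directions. Cdc20, Aurka, Cenpa, Cdca8, Kif11 and Kif22 were lower, and Bub3 higher, in all 14 settings that gave values, counting the main setting and those that left out an array. In the fit with the replicate number as a block, which raised the background to 32.8% lower and 32.5% higher, 26 of the 40 genes were lower and 4 higher.

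Other genes of the same pathways were taken from lists that do not overlap the 56. Of 13 measured subunits and partners of the APC (17 listed), 4 fell and 4 rose (30.8% each), shares near the 25.8% lower and 27.0% higher of all named genes, with a median of -0.11. Under median scaling 2 of the 13 were lower and 1 higher, when 9.33% and 15.3% of named genes were. Anapc13 rose by 1.36 (adjusted p = 1.57e-07), with 11.13, 11.25 and 11.07 in DAC/TSA samples and 9.81, 9.88 and 9.67 in controls. Anapc11, which forms part of the catalytic core, fell by 1.07 (adjusted p = 1.07e-06) and Anapc16 fell by 0.87 (adjusted p = 2.43e-06). Both are subunits of the complex that Cdc20 activates. Of 57 further mitotic genes measured (75 listed), 24 fell (42.1%, against 25.8% of named genes) and 8 rose (14.0%, against 27.0%), with a median of -0.20. Under median scaling 9 were lower and 2 higher, when 9.33% and 15.3% of named genes were. The largest changes of the list were those of Itgb3bp (1.67) and Cenpb (1.40), both centromere proteins, and Arpp19 (-1.39), an inhibitor of the phosphatase that opposes mitotic entry.

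Of the kinesins without a mitotic role, 14 were measured (28 listed), and 5 rose (35.7%, against 27.0% of named genes), none fell (against 25.8%) and 9 did not pass. Their median was 0.23, or 0.19 with the undetected gene at its bound, and 4 of the 14 changes were negative. Kifap3 (0.75, adjusted p = 0.00114) and Kif3c (0.74, adjusted p = 2.62e-05), which belong to the kinesin-2 group of transport motors, rose most, followed by Kif21a (0.50, adjusted p = 0.000207). Kif3c had 9.77, 9.91 and 10.00 in DAC/TSA samples and 9.19, 9.07 and 9.22 in control samples. Under median scaling none of the 14 was called higher, when 15.3% of named genes were. The difference from the mitotic kinesins was not tested.

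**Figure D4:**
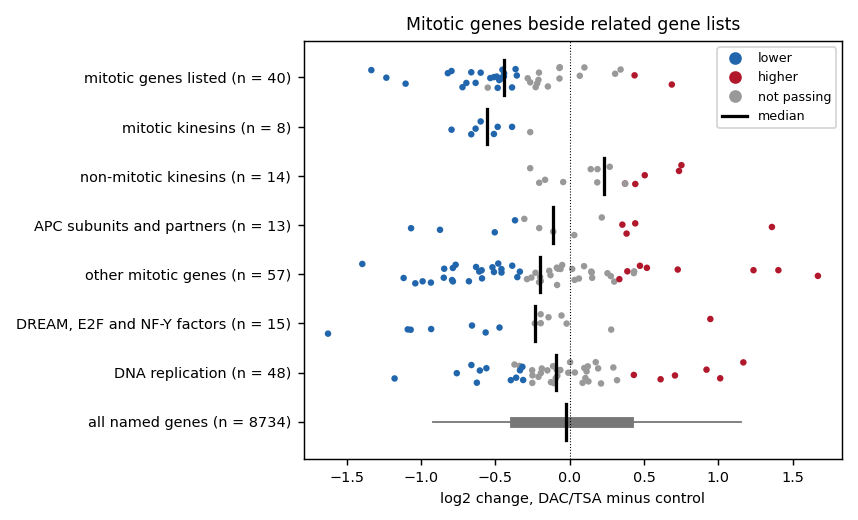
Log2 change (DAC/TSA minus control, horizontal axis) of single genes in the measured mitotic genes, their kinesins alone and 5 further lists; each point is a gene and the black bar a median, and for all 8734 named genes the thick and thin lines span percentiles 25 to 75 and 5 to 95. The mitotic genes have a median of -0.44 and the non-mitotic kinesins a median of 0.23.

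Among DREAM, E2F and NF-Y factors, 7 of 15 measured (23 listed) fell (46.7%, against 25.8% of named genes) and 1 rose (6.67%, against 27.0%), with a median of -0.23. Mybl2, the B-Myb protein that joins MuvB to activate late cell cycle promoters, fell by 1.63 (SE 0.098, adjusted p = 5.13e-08), with 9.17, 9.17 and 9.42 in DAC/TSA samples and 10.82, 10.84 and 10.98 in controls. Tfdp2 (-1.09) and E2f2 (-1.07) also fell, and Rb1, the retinoblastoma protein, rose by 0.95 (adjusted p = 2.08e-05). Of 48 genes of DNA replication measured (54 listed), 11 were lower (22.9%, near the 25.8% of named genes) and 6 higher (12.5%, against 27.0%), with a median of -0.09. Under median scaling 1 was lower, when 9.33% of named genes were, and with neqc 7 were, when 24.0% of named genes were. Dbf4 (-1.18), Tk1 (1.17) and Rfc2 (1.01) had the largest changes of that list.

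The promoter letters were then counted in windows of 300 bases (250 before to 50 after the start site) of RefSeq genes, on both strands, with matches of different motifs free to overlap. Of the 56 genes, 47 matched, with 50 windows. Windows were found for 22 of the 23 genes called lower, but for only 11 of the 17 measured genes not called lower. CHR letters (TTTGAA or TTCGAA) were present in 22 of 24 windows of the genes called lower (91.7%) and in 9 of 12 windows of measured genes not called lower (75%), against 13.5% of the windows of tested genes and 19.2% of all 32851 windows. CCAAT was present in 75% of windows of the lower genes, 58.3% of those not lower, 38.1% of tested genes and 37.4% of all. CHR and CCAAT together were found in 75% of windows of lower genes and 58.3% of windows of genes not lower, against 5.61% of tested genes. E2F-type letters (TTTCCCGC, TTTGGCGC, TTTCGCGC or TTTGCCGC) were found in none of the windows of lower genes, in 16.7% of windows of genes not lower (Kif15 and Ncapd2) and in 4.12% of windows of tested genes. Both Bub3 and Spc25, which rose, carry CHR letters and 2 CCAAT boxes, as the sequences above show in part. Plk4 and Pttg1 were the lower genes with a window and no CHR letters in it, and Birc5, Mad2l1 and Ncaph had none either.

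**Figure D5:**
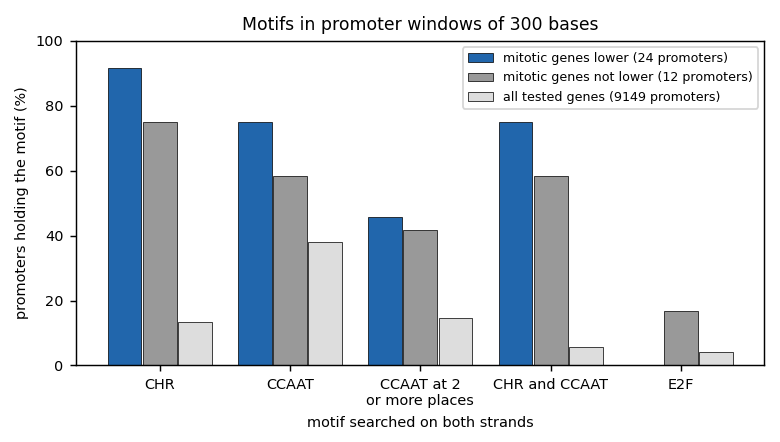
Percentage of promoter windows (vertical axis) that hold each motif for mitotic genes called lower, measured mitotic genes not called lower and all tested genes. CHR letters are in 91.7% of windows of the lower genes and 75% of windows of the mitotic genes not lower, against 13.5% of tested genes.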

How the data were processed

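Total RNA of 6 RVP3 cultures was hybridised to Illumina Mouse WG-6 bead chips (1 colour), 3 arrays for DAC/TSA and 3 for untreated control, described by the labels as biological replicates. The authors deposited probe intensity on a linear scale, extracted with BeadStudio, with a detection p-value per probe and array (45281 probes). The authors also deposited log2 values of 15131 probes. Quantile normalisation computed here of the log2 intensities matched those values to within 5e-14, so they are log2 without gene centring, and the median of each of their columns was 7.27. A probe was in this table exactly when a group had at least 2 arrays that detected it.

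As in the study's methods, signals were quantile normalised, log2 transformed and filtered to the 16760 probes with a detection p-value of 0.01 or less on any array. DAC/TSA and control were compared two-sided with lmFit and eBayes (limma 3.58.1 under R 4.3.3), without covariates, with Benjamini-Hochberg adjustment over all probes and a threshold of 0.01. The fit was tested on simulated data. Promoters and figures used Python 3.11.15, pandas 2.3.3, numpy 2.4.6 and matplotlib 3.10.9. The p-values set the difference of group means against the variation between the 3 arrays of each group. The fit draws that variation towards the level seen over all probes. The replicate number is not used in the main fit, and the number of arrays limits the precision.

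Probes were named through the platform annotation supplied with the value table, and symbols were updated through Entrez identifiers to GRCm38.p6 (1 symbol for 13126 probes, several for 6, none for 1999). Tested probes outside it have no name (3634 with the unnamed ones), so a gene silent in a group was measured only if detected on 2 arrays of the other. The probe with the highest mean signal stood for a gene. For a gene undetected on all arrays of a group, the fold is a bound, set by raising each dim signal to the lowest detected signal of its array where it lay under it, before the means were compared. No slide or scan was given, so none could be tested as a batch, and 0 columns were left unused.

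The genes, roles and lists were chosen with earlier results of these data known, so lists are described by counts and medians without tests. Values per array are given for up to 3 genes of a role with the largest change past the threshold, for genes called against the majority, and for genes whose probes are called in opposite directions; those given for other genes (Aurkb, Mad2l1, Birc5, Spc24, Tpx2 and Cdca5, and Cdca3 and Cdc25b by change only) were chosen after their values were seen. In other lists, up to 3 genes with the largest changes past the threshold are named. Samples of the same replicate number deviated together from their group means (correlations of 0.34, 0.24 and 0.65). Deviations cancel out within a group, so a shift shared by the third arrays alone could raise all 3 values. Correlations between different numbers are not given, so these values do not show that each number is a pair. The labels name no shared day or batch, and the block is therefore only an alternative. Alternatives covered normalisation, background correction (neqc), the detection filter, the mean of a gene's probes, the threshold, the replicate block and leaving out each array. The lists were rerun under median scaling and neqc, a step added after seeing the data.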

Additional observations from a re-analysis of the deposited data

How the results depend on the processing

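Of the 13 alternatives that changed values, none reversed the direction of a called gene, while Cdc25b, Cdca3, Mad2l1 and Smc2, which did not pass, changed sign in some. Median scaling left 6 genes lower and 1 higher, with a median of -0.37 over the genes, -0.26 over passengers, -0.17 over condensation genes and -0.46 over cytokinesis genes. Under that scaling 9.33% of named genes were lower and 15.3% higher. In the other lists median scaling left 2 lower and 1 higher of the APC subunits, 9 lower and 2 higher of other mitotic genes, 0 higher of the non-mitotic kinesins and 1 lower of the replication genes. The cause was not tested. With neqc, 7 replication genes were lower, when 24.0% of named genes were. Medians with neqc were -0.73 for kinases, -0.72 for kinetochore genes, -0.66 for kinesins, -0.65 for APC and separation genes, -0.23 for condensation and -0.69 for cytokinesis. Without the filter, and with probes detected on at least 2 of 3 arrays of a group, 4 genes were higher (Birc5 and Spc24 added). Of named genes, 27.3% and 27.1% were higher in these settings. With probes detected on all 6 arrays, which removes Pttg1, Ect2 and Cenpf, medians were -0.24 for kinetochore genes and -0.53 for cytokinesis. The mean of a gene's probes gave -0.39 over the genes and -0.26 over condensation, and called Incenp lower, and Birc5 and Spc24 but not Spc25 higher. A threshold of 0.05 gave 28 lower and 4 higher, with 32.6% of named genes lower and 32.4% higher. A minimum of 1.5-fold gave 10 lower and 1 higher, with 14.0% of named genes lower and 16.5% higher.

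With the replicate block, 26 genes were lower and 4 higher. It added Cdca5, Incenp and Kif15 as lower and Birc5 and Spc24 as higher, and changed no other call. Leaving out each array gave 17 to 21 lower and 1 to 3 higher. Of named genes, 21.1% to 26.5% were then lower and 23.0% to 27.3% higher. Medians were -0.42 to -0.37 over the 40 genes, -0.64 to -0.53 over kinases and -0.07 to 0.27 over checkpoint genes. They were -0.16 to -0.03 over entry genes, -0.32 to -0.25 over passengers and -0.51 to -0.40 over kinetochore genes. Kinesins had -0.59 to -0.54, spindle assembly genes -0.40 to -0.30 and APC and separation genes -0.59 to -0.46. Condensation genes had -0.21 to -0.11 and cytokinesis genes -0.57 to -0.45.

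Genes near the detection limit, Pttg1, Ect2 and Cenpf, carry changes that understate or bound the difference. The 16 genes with no named probe include cyclins and checkpoint kinases, and were not analysed here. Bead chips give relative signal, so levels of different genes cannot be ranked, and 3 arrays per group limit what small changes can pass.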
